A study of Drosophila melanogaster with 11 samples.

Results

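The genes described here encode subunits of the proteasome and their close copies in Drosophila melanogaster. They were taken as the genes whose symbol, on the array or in the current annotation, starts with Rpn, Rpt, Prosalpha or Prosbeta. Of 48 such genes in the annotation, 30 had a named spot on the array, out of 6793 named genes in all, and the other 18 are not analysed here. The 30 comprise 6 genes of the lid (Rpn3, Rpn5, Rpn7, Rpn8, Rpn11, Rpn12), 5 of the base (Rpn2, Rpn13, Rpt2, Rpt3, Rpt4), 6 of the alpha rings (Prosalpha2 to Prosalpha7), 4 of the beta rings (Prosbeta3, Prosbeta4, Prosbeta5, Prosbeta7) and 9 copies of subunit genes, marked by R or T in their symbols (Prosalpha4T1, Prosalpha4T2, Prosbeta2R1, Prosbeta2R2, Prosbeta4R2, Prosbeta5R1, Rpn13R, Rpt3R, Rpt4R).

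The study compared transcripts of early fly embryos, of embryos lacking normal Smaug function and of eggs that were never fertilized, each with those of the mature oocyte. Smaug, the product of smg, is an RNA-binding repressor of maternal transcripts. There were 11 two-colour cDNA arrays in 3 groups: 4 of smg material collected at 2 to 3 h, 4 of wild-type (w1118) embryos of the same age, and 3 of w1118 unfertilized eggs at 4 to 6 h. All 11 arrays carried RNA of w1118 stage 14 oocytes in the other channel. The smg allele is not named in the labels, and smg replicate 4 has the source name SMGoverDf, while the other 3 have SMG. On the 2 to 3 h arrays the sample was labelled indirectly with Alexa Fluor 647 and the oocyte RNA with Alexa Fluor 555, at 60 µg per channel. On the unfertilized arrays the sample was labelled directly with Cy3 and the oocyte RNA with Cy5. Age, fertilization, dyes and labelling therefore differ together between these sets of arrays and cannot be told apart. No group had dyes swapped, so a dye bias is part of each comparison with oocytes.

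The 26S proteasome degrades proteins that carry ubiquitin chains. Its core is a barrel of stacked alpha and beta rings with the peptidase sites inside, and a regulatory particle sits on the ends of the barrel. In that particle the base, with the Rpt ATPases and the scaffold and receptor subunits, unfolds the substrate, while the lid removes its ubiquitin. In flies the oocyte stores transcripts for most housekeeping machinery, and many of these maternal transcripts are destroyed after egg activation, in part through Smaug.

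Each array holds a log2 ratio per spot. Spots of a gene were averaged and the median over all named genes was subtracted array by array, so that a level of 0 is that of the median gene relative to oocytes and a difference of 1 is a factor of 2. Values were present for 51.1% of the spots of smg replicate 1 and 48.9% of those of wild-type replicate 1, against 74.98% to 99.1% on the other 9 arrays, and the medians as deposited were -4.42 and -4.01 on those arrays, against -0.37 to 0.16 elsewhere. No source names the numerator of the ratio. It is likely the sample, since the 3 yolk protein genes lay below 0 on all 11 arrays and zygotic genes above 0 in embryos. Of 12 zygotic genes, array medians were 0.69 to 1.22 in smg, over 5 to 12 measured genes, 1.40 to 1.91 in wild-type embryos, over 8 to 12, and -0.09 to 0.16 in unfertilized eggs, over 11 to 12. The direction of smg replicate 3 is not settled. As deposited, its median was -1.75 over the yolk genes and 0.69 over the zygotic genes, with 8 of 12 of the latter above 0. Both medians lay on the same side of 0 as on the other smg arrays. With its sign turned, this array would have both on the opposite side. Across genes, which are not independent replicates, it correlated at r = -0.51 and -0.34 with smg replicates 1 and 2 and at 0.76 with smg replicate 4. With wild-type replicates 1 to 4 it correlated at -0.49, -0.27, -0.15 and 0.14. With unfertilized replicates 1 to 3 it correlated at -0.41, -0.26 and -0.16. Correlations of smg replicate 4 with smg replicates 1 and 2 were also below 0, at -0.17 and -0.12. The main smg results of the members are therefore also given after turning the sign of smg replicate 3 and without it. Of the pathway lists this was done only for Uch, Usp5, vih and Usp14. The smg gene itself was at -2.66, -1.18, 2.02 and 0.21 on smg replicates 1 to 4, at -2.60, -0.77, -1.44 and -1.12 on wild-type replicates 1 to 4, and at -0.39, -0.18 and 0.17 on unfertilized replicates 1 to 3. Nothing in the labels ties an array to a separate collection, so p-values measure the spread between these arrays, which may be technical.

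Transcripts of the lid were low in wild-type embryos and in unfertilized eggs, and those of the core lay near the median gene or above it. The median of the 6 lid genes was -0.51, 0.02, 1.73 and 0.92 on smg replicates 1 to 4, between -1.43 and -0.87 on the 4 wild-type arrays and between -1.47 and -1.27 on the 3 unfertilized arrays. Among all genes of an array, the lid median stood at percentiles 31.2, 51.2, 83.9 and 87.2 on smg arrays, 10.6, 6.68, 6.33 and 7.46 on wild-type arrays, and 2.54, 3.00 and 3.66 on unfertilized arrays. The core median, over the alpha and beta ring genes, stood at percentiles 32.0 to 74.4 on smg arrays, 49.1 to 78.7 on wild-type arrays and 51.2 to 73.4 on unfertilized arrays. The rings differed in wild-type embryos. The beta ring median stood at percentiles 49.5, 71.9, 89.7 and 89.6 on wild-type replicates 1 to 4, and the alpha ring median at 43.2 to 54.3. On unfertilized arrays the beta ring was at 37.8 to 67.1 and the alpha ring at 49.4 to 75.9. The medians of the 5 base genes were -0.62, -0.36, 1.73 and 0.89 on smg arrays, -1.15 to -0.09 on wild-type arrays and -1.17 to -0.71 on unfertilized arrays. Of these genes Rpn2 had no value on smg replicate 2. The eggs and embryos were assayed whole, so fewer cells carrying a transcript and less of it per cell cannot be told apart.

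**Figure D1:**
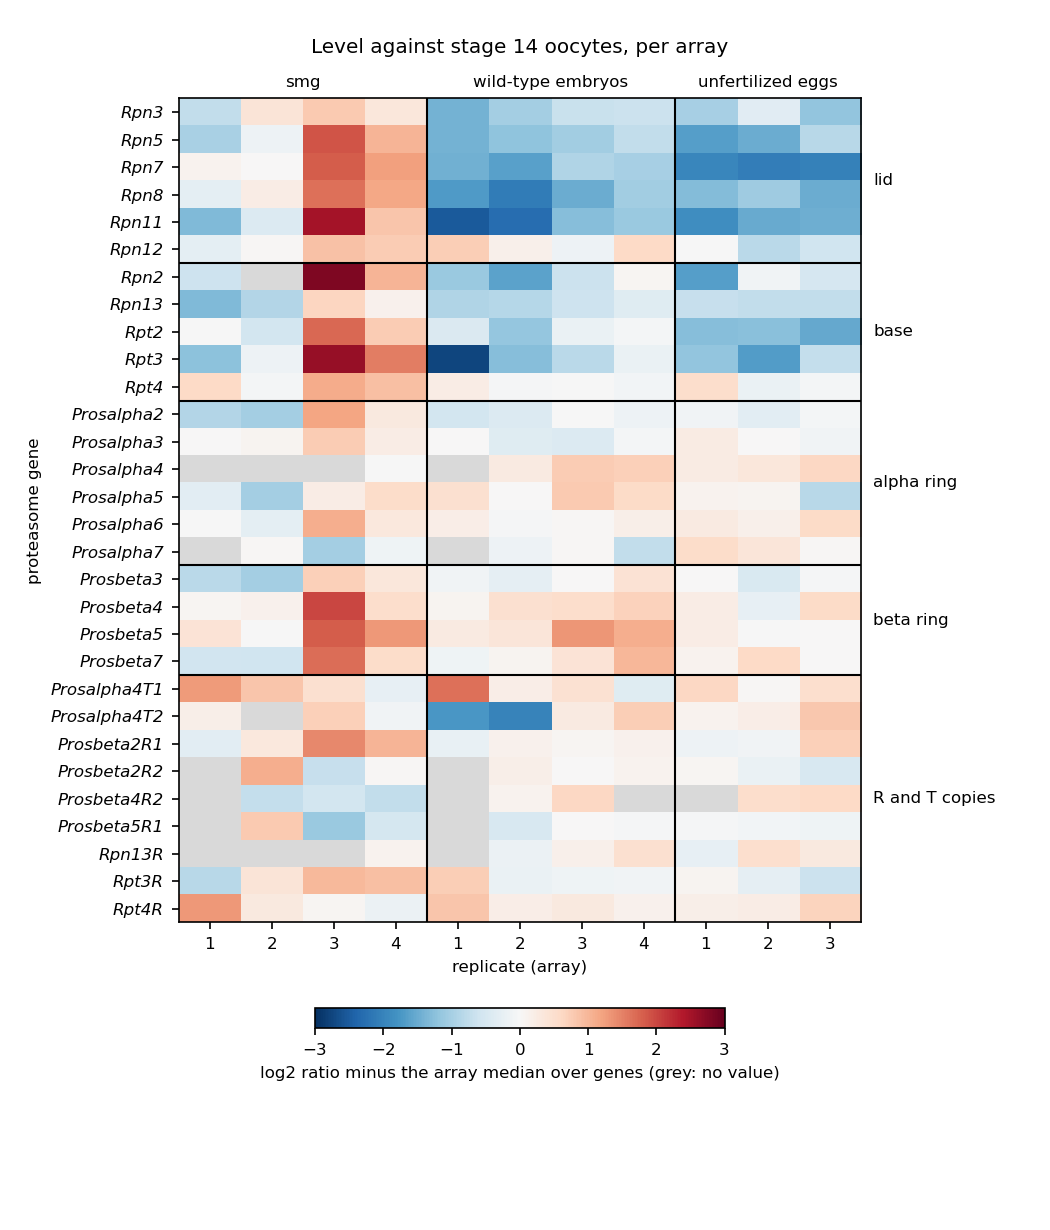
Level of each of the 30 genes on each of the 11 arrays, as the log2 ratio to oocytes minus the array median (colour scale from -3 to 3, grey where there is no value), with genes down the page by subcomplex and arrays across by group. Rpn3, Rpn5, Rpn7, Rpn8 and Rpn11 are below 0 on all 4 wild-type and all 3 unfertilized arrays, and smg replicate 3 is high across lid, base and most core genes.

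The contrast of lid with core within an array needs no common centre between arrays. The lid median minus the core median was -0.36, 0.30, 0.64 and 0.59 on smg replicates 1 to 4, a mean of 0.29 ± 0.46 (SD, n = 4). It was -1.47, -1.41, -1.20 and -1.38 on wild-type replicates 1 to 4, a mean of -1.37 ± 0.12 (SD, n = 4), and -1.70, -1.32 and -1.35 on unfertilized replicates 1 to 3, a mean of -1.45 ± 0.21 (SD, n = 3). The 4 smg arrays lay above all wild-type and all unfertilized arrays, which overlapped each other. The core median rested on 8 to 10 measured genes an array. Over the 6 lid and 8 core genes measured on all arrays, the contrast was -0.36 to 0.60 in smg. It was then -1.47 to -1.20 in wild-type embryos and -1.64 to -1.27 in unfertilized eggs. After turning smg replicate 3, its own contrast was -0.64 and the smg mean -0.03 ± 0.57 (SD, n = 4), and without that array the mean was 0.18 ± 0.49 (SD, n = 3). The genes were grouped with earlier results of these data known, so these contrasts are a description, with no test.

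**Figure D2:**
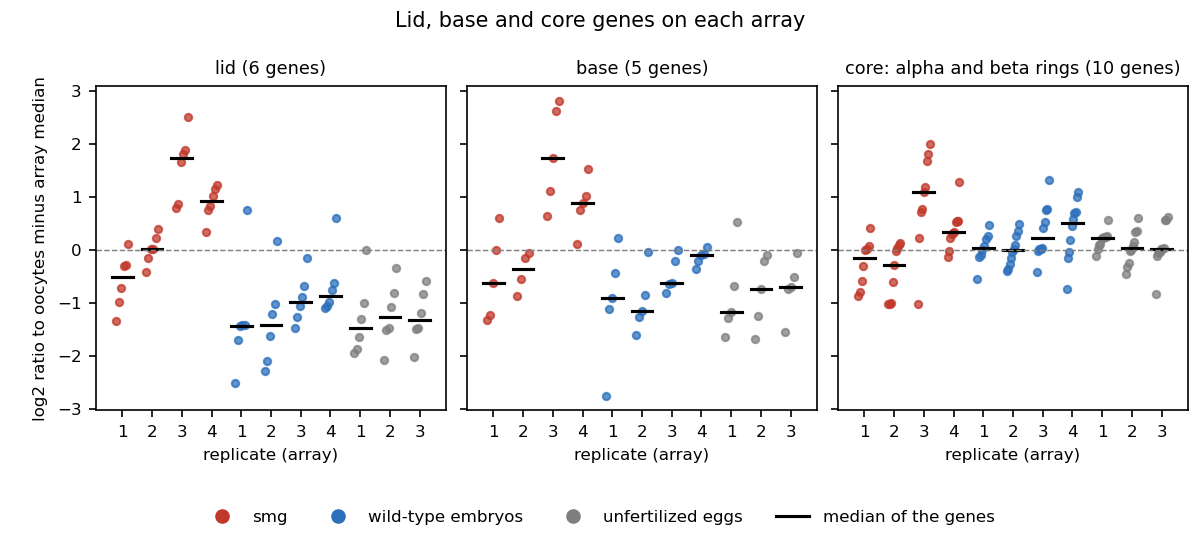
Levels of the 6 lid, 5 base and 10 core genes on each array where measured (points, log2 ratio to oocytes minus the array median), with the median of the measured genes as a bar, for smg, wild-type embryos and unfertilized eggs. The lid median is -0.87 or lower on each wild-type and unfertilized array, while the core median is between -0.01 and 0.51 on these arrays.

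Rpn11 is the deubiquitinase of the lid, a metalloprotease of the MPN family that cuts ubiquitin chains off substrates as they enter the core. Its level was -1.33, -0.42, 2.51 and 0.83 on smg replicates 1 to 4, against -2.52, -2.29, -1.27 and -1.11 on wild-type replicates 1 to 4 and -1.87, -1.52 and -1.47 on unfertilized replicates 1 to 3. All 4 smg arrays lay above all unfertilized arrays, smg replicate 1 fell among the wild-type arrays, and the wild-type and unfertilized ranges overlapped. Rpn8 is the MPN partner of Rpn11, without a catalytic site of its own. It stood at -0.29, 0.22, 1.66 and 1.16 in smg, against -1.71, -2.10, -1.48 and -1.05 in wild-type embryos and -1.30, -1.07 and -1.48 in unfertilized eggs. The smg arrays did not overlap either other group, and the wild-type and unfertilized arrays overlapped. With its sign turned, smg replicate 3 would stand at -1.66 for Rpn8 and -2.51 for Rpn11, inside the wild-type ranges.

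Rpn7, Rpn5, Rpn3 and Rpn12 are PCI-domain subunits, which form the horseshoe of the lid. Rpn7 was at 0.11, 0.015, 1.81 and 1.22 in smg replicates 1 to 4, against -1.44, -1.63, -0.90 and -0.99 in wild-type replicates 1 to 4 and -1.95, -2.07 and -2.02 in unfertilized replicates 1 to 3. The 3 groups did not overlap for Rpn7, with smg highest and unfertilized eggs lowest, but with its sign turned smg replicate 3 would stand at -1.81, below all wild-type arrays. Rpn5 was at -0.98, -0.15, 1.90 and 1.02 in smg, against -1.42, -1.21, -1.05 and -0.75 in wild-type embryos and -1.64, -1.48 and -0.84 in unfertilized eggs. The 3 other smg arrays exceeded both groups, while smg replicate 1 fell among them.

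Rpn3 was at -0.73, 0.39, 0.80 and 0.33 in smg, against -1.41, -1.02, -0.68 and -0.63 in wild-type embryos and -1.01, -0.34 and -1.19 in unfertilized eggs. In these averages over spots, smg replicate 1 again fell among the wild-type arrays, and smg overlapped the unfertilized range. Rpn3 had 2 pairs of spots that did not read alike. The first pair averaged 0.29 ± 0.79 in smg (SD, n = 3), -0.20 ± 0.09 in wild-type embryos (SD, n = 3) and 0.39 ± 0.81 in unfertilized eggs (SD, n = 3). The second averaged 0.36 ± 1.20 in smg (SD, n = 4), -1.30 ± 0.36 in wild-type embryos (SD, n = 4) and -1.91 ± 0.36 in unfertilized eggs (SD, n = 3). The low level of Rpn3 in wild-type embryos and unfertilized eggs thus came mainly from the second pair. On smg replicate 1 and wild-type replicate 1 only the second pair had a value. Within that pair, with no array turned, smg was at -0.73 to 1.96 and overlapped neither other group. Wild-type embryos were at -1.74 to -0.90 there and unfertilized eggs at -2.22 to -1.52. Within the first pair smg, at -0.37 to 1.16, overlapped both groups. Rpn12 was the lid gene without that pattern: it averaged 0.34 ± 0.57 in smg (SD, n = 4), 0.34 ± 0.41 in wild-type embryos (SD, n = 4) and -0.47 ± 0.42 in unfertilized eggs (SD, n = 3).

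In the base, Rpt2, Rpt3 and Rpt4 belong to the ATPase ring that unfolds substrates and opens the gate of the core. Rpt3 was at -1.23, -0.15, 2.61 and 1.53 in smg replicates 1 to 4, against -2.75, -1.27, -0.82 and -0.21 in wild-type replicates 1 to 4 and -1.17, -1.68 and -0.71 in unfertilized replicates 1 to 3. It was below 0 on each wild-type and unfertilized array, and smg replicate 1 fell among them. Rpt2 was at -0.0033, -0.56, 1.73 and 0.76 in smg, against -0.44, -1.15, -0.20 and -0.07 in wild-type embryos and -1.29, -1.25 and -1.54 in unfertilized eggs. The unfertilized arrays were the lowest and overlapped neither other group, while smg and wild-type embryos overlapped. Rpt4 did not follow the other ATPases, at 0.64 ± 0.51 in smg (SD, n = 4), 0.03 ± 0.14 in wild-type embryos (SD, n = 4) and 0.09 ± 0.39 in unfertilized eggs (SD, n = 3).

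Rpn2 is a large scaffold of the base and Rpn13 a ubiquitin receptor that Rpn2 holds. Rpn2 was at -0.62, 2.81 and 1.01 in smg replicates 1, 3 and 4 and was not measured on replicate 2, against -1.11, -1.60, -0.65 and 0.06 in wild-type embryos and -1.65, -0.10 and -0.50 in unfertilized eggs. The groups overlapped, and the smg mean rested largely on replicate 3. Rpn13 was at -1.32, -0.87, 0.65 and 0.12 in smg, against -0.91, -0.85, -0.62 and -0.36 in wild-type embryos and -0.68, -0.75 and -0.73 in unfertilized eggs. It was below 0 on each wild-type and unfertilized array, and the lowest and the highest of all 11 values were on smg replicates 1 and 3.

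In the core, the beta rings carry the peptidases. Prosbeta5, the subunit with the chymotrypsin-like site, was, with the copies left aside, the 1 measured subunit with a peptidase site. Prosbeta1 and Prosbeta2 are not analysed here. Prosbeta5 was at 0.41, -0.02, 1.82 and 1.29 in smg replicates 1 to 4, against 0.27, 0.36, 1.32 and 1.09 in wild-type replicates 1 to 4 and 0.22, -0.01 and 0.02 in unfertilized replicates 1 to 3. All wild-type arrays lay above all unfertilized arrays, and in both 2 to 3 h groups the later slides, which are replicates 3 and 4, were higher than the earlier slides. Prosbeta4 was at 0.07, 0.13, 2.00 and 0.53 in smg, against 0.08, 0.49, 0.52 and 0.69 in wild-type embryos and 0.22, -0.25 and 0.57 in unfertilized eggs. Prosbeta3 was at -0.80, -1.03, 0.72 and 0.35 in smg, against -0.10, -0.27, 0.02 and 0.44 in wild-type embryos and 0.01, -0.45 and -0.03 in unfertilized eggs. The groups overlapped for both of these structural subunits. Prosbeta7 averaged 0.26 ± 1.09 in smg (SD, n = 4), 0.34 ± 0.49 in wild-type embryos (SD, n = 4) and 0.24 ± 0.32 in unfertilized eggs (SD, n = 3).

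The alpha rings form the gate of the barrel and carry no peptidase. Prosalpha3 was at 0.012, 0.09, 0.77 and 0.22 in smg, against 0.0042, -0.36, -0.42 and -0.05 in wild-type embryos and 0.25, 0.0071 and -0.11 in unfertilized eggs. All smg arrays lay above all wild-type arrays, by a margin as small as that between 0.012 and 0.0042. Prosalpha5 was at -0.31, -1.01, 0.23 and 0.55 in smg, against 0.47, 0.01, 0.78 and 0.58 in wild-type embryos and 0.11, 0.08 and -0.83 in unfertilized eggs. It was above 0 on all wild-type arrays and overlapped with smg. Prosalpha2, Prosalpha6 and Prosalpha7 had smg means of -0.10, 0.28 and -0.37, wild-type means of -0.28, 0.10 and -0.29 and unfertilized means of -0.16, 0.33 and 0.32. Prosalpha4 was measured on a single smg array, at -0.01, with means of 0.58 ± 0.27 in wild-type embryos (SD, n = 3) and 0.40 ± 0.20 in unfertilized eggs (SD, n = 3).

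The 9 copies are known in flies mainly from the male germ line. Prosalpha4T2 was at 0.17, 0.70 and -0.10 in smg replicates 1, 3 and 4, against -1.75, -1.99, 0.27 and 0.73 in wild-type replicates 1 to 4 and 0.11, 0.20 and 0.81 in unfertilized replicates 1 to 3. In wild-type embryos the arrays of the earlier slides were far below those of the later slides for this copy. Prosbeta2R1 was at -0.31, 0.31, 1.44 and 1.02 in smg, against -0.22, 0.13, 0.06 and 0.12 in wild-type embryos and -0.16, -0.11 and 0.70 in unfertilized eggs. The groups overlapped. Means of the other copies were between -0.66 (Prosbeta4R2) and 0.58 (Prosalpha4T1) in smg, between -0.17 (Prosbeta5R1) and 0.49 (Prosalpha4T1) in wild-type embryos, and between -0.27 (Rpt3R) and 0.56 (Prosbeta4R2) in unfertilized eggs. Copies share sequence with their parent genes, and cross-hybridization on cDNA spots was not tested.

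Unfertilized eggs were compared with oocytes to see which levels differ without fertilization. All 6 lid genes had lower means, and 5 of them fell: Rpn7 (-2.01, SE 0.17, limma adjusted p = 2.05e-06), Rpn11 (-1.62, SE 0.18, adjusted p = 2.19e-05), Rpn5 (-1.32, SE 0.19, adjusted p = 2.71e-04), Rpn8 (-1.28, SE 0.18, adjusted p = 1.51e-04) and Rpn3 (-0.84, SE 0.20, adjusted p = 0.0101). In the base Rpt2 (-1.36, SE 0.17, adjusted p = 8.62e-05), Rpt3 (-1.19, SE 0.20, adjusted p = 9.31e-04) and Rpn13 (-0.72, SE 0.17, adjusted p = 0.0116) fell, and Rpn2 had -0.75 (SE 0.24, adjusted p = 0.0654). Of 10 core genes and 9 copies none was called by limma, with 1 of each at an unadjusted p under 0.05. The 8 falls are of 30 genes tested, while 10% of all 6782 genes tested were called lower, 678 genes. The medians were -1.30 for the lid, -0.75 for the base, 0.13 for the core and 0.02 for all genes.

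All 3 unfertilized arrays were below 0 for 6 of 6 lid genes, 4 of 5 base genes and 1 of 10 core genes, against 23.8% of all genes. The calls of Rpn5, Rpn7, Rpn8, Rpn11, Rpt2 and Rpt3 held under each of 10 alternatives, with adjusted p up to 0.0168. Rpn3 was not called without unfertilized replicate 1 (-0.76, adjusted p = 0.0986). Rpn13 was not called in the values as deposited (-0.75, adjusted p = 0.0516), without unfertilized replicate 1 (-0.74, adjusted p = 0.0636) or without unfertilized replicate 2 (-0.71, adjusted p = 0.052). Yp1, Yp2 and Yp3, which encode yolk proteins and are the 3 measured of 15 listed markers of follicle cells, also fell, with array medians of -2.21 to -1.24 in unfertilized eggs. Their array medians were -2.71 to -1.06 in smg and -2.71 to -1.996 in wild-type embryos. Their part in the results against oocytes was not tested. The test sets the group against 0 and leaves out the spread of the oocytes themselves.

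Wild-type embryos against oocytes had differences mostly of similar size, with larger standard errors in a fit that shares its spread with the smg arrays. Rpn8 fell (-1.59, SE 0.33, adjusted p = 0.0232), the 1 member called of 29 tested, while 3.3% of all 6328 genes tested were called, 2.48% in the lower direction. The other lid differences were -1.80 for Rpn11 (SE 0.50, adjusted p = 0.0853), -1.24 for Rpn7 (SE 0.32, adjusted p = 0.0599), -1.11 for Rpn5 (SE 0.39, adjusted p = 0.185) and -0.94 for Rpn3 (SE 0.28, adjusted p = 0.111). In the base they were -1.26 for Rpt3 (SE 0.56, adjusted p = 0.335), -0.83 for Rpn2 (SE 0.47, adjusted p = 0.543), -0.68 for Rpn13 (SE 0.32, adjusted p = 0.379) and -0.47 for Rpt2 (SE 0.35, adjusted p = 0.708). Prosbeta5 had the largest difference above 0 among the members (0.76, SE 0.33, adjusted p = 0.316), and it was at -0.24 in the values as deposited, where the median of all genes was -0.66. The medians were -1.17 for the lid, -0.68 for the base, 0.22 for the core and 0.01 for all genes.

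All 4 wild-type arrays lay below 0 for 5 of 6 lid genes, 3 of 5 base genes and 1 of 10 core genes, against 18.1% of all genes. Leaving out any 1 wild-type array ended the call of Rpn8, with differences of -1.76 to -1.41 and adjusted p between 0.0722 and 0.183. The call was also lost in the values as deposited (-2.59, SE 1.16, adjusted p = 0.834), where the arrays are not centred, and without the low-median pair of smg and wild-type replicates 1 (-1.54, adjusted p = 0.0698). With the earlier and later slides as a block, Rpn3, Rpn5, Rpn7, Rpn8, Rpn11 and Rpt3 were called lower, 6 members against 6.78% of all genes, with adjusted p from 0.00103 for Rpn8 to 0.0294 for Rpn3 and Rpn5. With the wild-type arrays fitted alone, limma called Rpn3, Rpn5, Rpn7, Rpn8, Rpn11, Rpn13 and Rpt3 lower. Adjusted p then ran from 9.66e-04 for Rpn8 to 0.0492 for Rpn13. That fit also called more genes in all than the main fit, and both counts are given in the last section. The 6 measured of 11 listed maternal marker genes had array medians of -2.98 to -1.95 in wild-type embryos and of -1.22 to -0.41 in unfertilized eggs. Their part in the result was not tested.

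**Figure D3:**
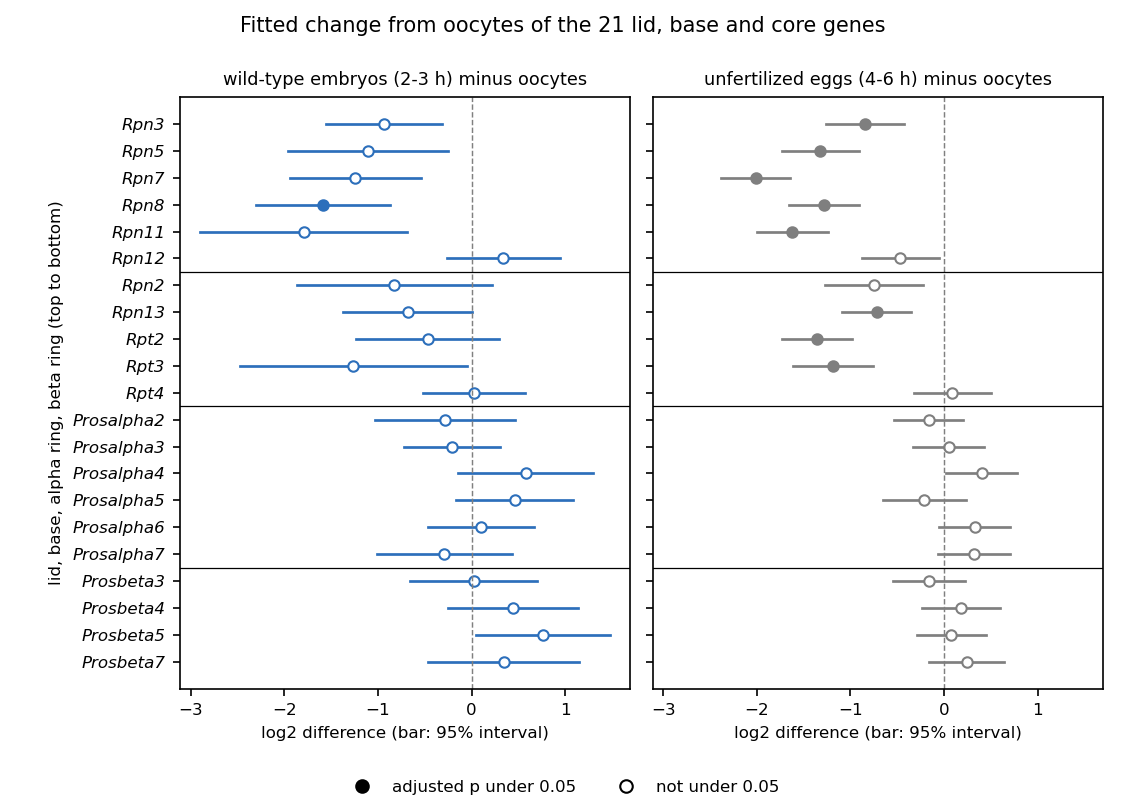
Fitted log2 difference from oocytes of the 21 lid, base and core genes in wild-type embryos and in unfertilized eggs (points, bars: 95% confidence interval, filled where the adjusted p is under 0.05). Filled points are 5 lid and 3 base genes in unfertilized eggs and Rpn8 in wild-type embryos, and the core genes lie between -0.29 and 0.76 in wild-type embryos and between -0.21 and 0.40 in unfertilized eggs.

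Wild-type embryos against unfertilized eggs asks whether the levels differ between these groups, with age, dyes and labelling confounded. Of 29 members tested none was called by limma, and none had an unadjusted p under 0.05, while 0.301% of all 6322 genes tested were called. Lid differences ran from -0.30 for Rpn8 to 0.81 for Rpn12. For Rpn7, whose groups did not overlap, the difference was 0.77 (SE 0.43, adjusted p = 0.999), with a 95% interval of -0.15 to 1.70. For Rpn8 it was -0.30 (SE 0.45, adjusted p = 0.999) with a 95% interval of -1.26 to 0.65. Both intervals hold 0 and differences larger than 1 in size. Groups were apart with wild-type embryos higher for Rpn7, Rpt2 and Prosbeta5, against 6.79% of all genes, and with wild-type embryos lower for Prosalpha7, against 7.21%.

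Setting smg beside wild-type embryos compares levels between these groups at 1 age. A difference in background or in developmental progress cannot be told apart here from the smg genotype. The 12 zygotic genes had a median difference of -1.09, with no array turned. Lid genes other than Rpn12 averaged higher in smg, by 1.13 to 2.27, and none passed the test. Rpn8 differed by 2.27 (SE 0.47, limma adjusted p = 0.0857), Rpn11 by 2.19 (SE 0.70, adjusted p = 0.260), Rpn7 by 2.03 (SE 0.46, adjusted p = 0.106), Rpn5 by 1.56 (SE 0.55, adjusted p = 0.312) and Rpn3 by 1.13 (SE 0.41, adjusted p = 0.320). In the base the differences were 1.95 for Rpt3 (SE 0.77, adjusted p = 0.376), 1.89 for Rpn2 (SE 0.71, adjusted p = 0.348) and 0.95 for Rpt2 (SE 0.50, adjusted p = 0.588). Of 27 members tested 0 were called, with 7 at an unadjusted p under 0.05, and 0.276% of all 5791 genes tested were called. The medians were 1.79 for the lid, 0.95 for the base, 0.11 for the core and 0.17 for all genes. Groups were apart with smg higher for Rpn7, Rpn8 and Prosalpha3, against 5.66% of all genes. After turning smg replicate 3 they were apart for 0 members, against 2.3% of all genes, and without it for 3, against 7.27%.

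The sets of slides and smg replicate 3 bear on these values. In the earlier slides the smg mean exceeded the wild-type mean by 1.87 for Rpn8, 1.60 for Rpn7, 1.53 for Rpn11, 1.05 for Rpn3 and 0.75 for Rpn5, and in the later slides by 2.67, 2.46, 2.86, 1.22 and 2.36 for the same genes in that order. The direction was thus the same in both sets for these 5 genes, while Rpn12 was at -0.59 in the earlier and 0.59 in the later slides. With the slide set as a block, Rpn8 (adjusted p = 0.00257), Rpn7 (adjusted p = 0.0051), Rpn11 (adjusted p = 0.011), Rpt3 (adjusted p = 0.0265) and Rpn5 (adjusted p = 0.0466) were called higher in smg, 5 members against 3.7% of all genes. Without smg replicate 1, Rpn8, Rpn7, Rpn11, Rpn2 and Rpn5 were called, with adjusted p between 0.0161 and 0.0387, against 3.07% of all genes called higher.

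After turning smg replicate 3, none of the members was called, with or without the block, and the differences were 1.44 for Rpn8, 1.13 for Rpn7, 0.94 for Rpn11, 0.74 for Rpn3, 0.61 for Rpn5, 0.64 for Rpt3 and 0.02 for Rpn2. Without that array they were 1.95, 1.69, 1.49, 0.93, 1.07, 1.31 and 1.02 for these genes in that order, and none was called. With the block and without that array, a setting chosen after seeing the data, Rpn8 (2.09, adjusted p = 0.00513), Rpn7 (1.83, adjusted p = 0.0102) and Rpn11 (1.72, adjusted p = 0.0188) were called higher, against 1.8% of all genes. The core median was -0.57 with the sign turned and -0.20 without the array, so no direction can be given for the core. The medians of the 6 maternal marker genes, which include smg itself, were -2.05, -1.11, 2.03 and 0.20 on smg replicates 1 to 4. They were lowest on replicate 1 and highest on replicate 3, as for the lid and for the base. The core median was also highest on replicate 3. On wild-type arrays the marker medians were -2.98 to -1.95. The part of the marker genes in the result was not tested.

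**Figure D4:**
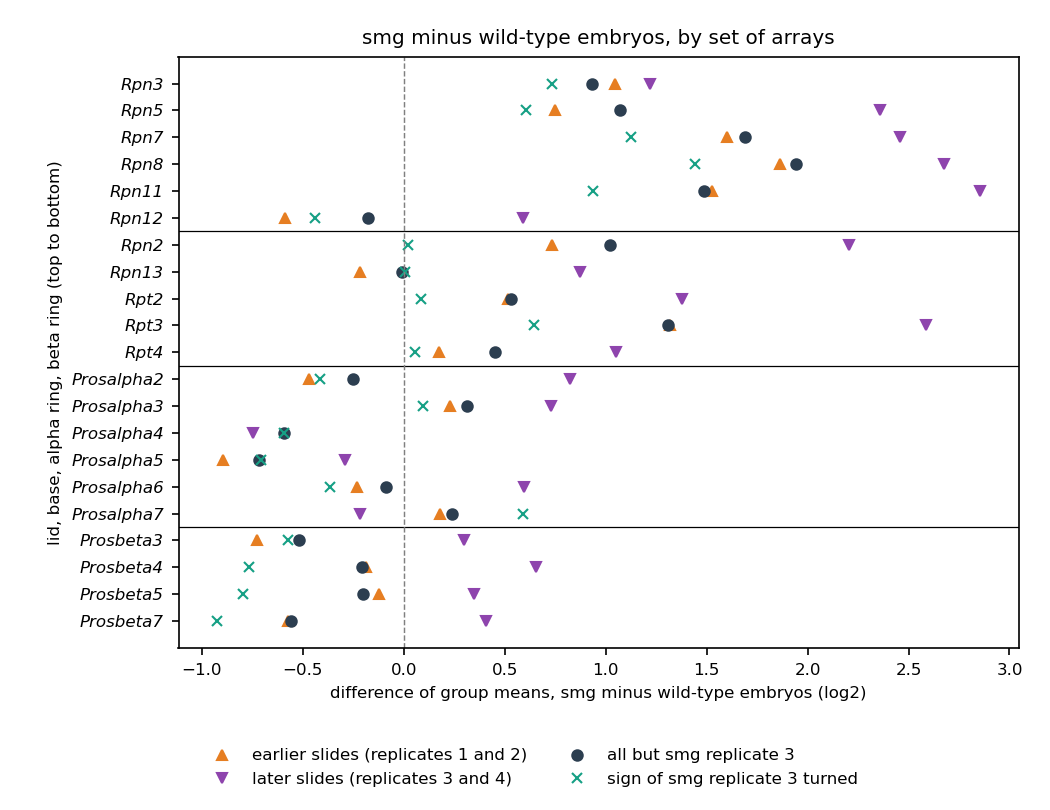
Difference of group means, smg minus wild-type embryos (log2), for the 21 lid, base and core genes over the earlier slides, over the later slides, over all arrays but smg replicate 3, and over all arrays after turning smg replicate 3. Rpn3, Rpn5, Rpn7, Rpn8 and Rpn11 lie above 0 in all 4 sets, from 0.61 (Rpn5, sign turned) to 2.86 (Rpn11, later slides).

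In smg against oocytes no lid gene passed the test. The lid differences ran from 0.20 for Rpn3 to 0.79 for Rpn7 with a median of 0.42, and the base median was 0.64. Of 28 members tested 0 were called by limma, with 3 at an unadjusted p under 0.05, and 0.0818% of all 6112 genes tested were called, 5 genes. After turning smg replicate 3 the lid median was -0.17, and without that array 0.08. As deposited it was -0.69, where the median of all genes was -0.55, so the side of 0 on which the lid lies in smg depends on the centring.

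Between smg and unfertilized eggs, Rpn7 was higher in smg (2.80, SE 0.43, adjusted p = 0.041), the 1 member called of 28, against 0.295% of all 6107 genes tested. Other differences were 2.02 for Rpn11 (SE 0.69, adjusted p = 0.248), 1.97 for Rpn8 (SE 0.45, adjusted p = 0.0848), 1.84 for Rpt2 (SE 0.48, adjusted p = 0.131) and 1.77 for Rpn5 (SE 0.54, adjusted p = 0.206). Groups were apart with smg higher for Rpn7, Rpn8, Rpn11 and Rpt2, against 9.97% of all genes. After turning smg replicate 3 they were apart for Rpn7 alone among the members, against 3.78% of all genes, and without it for 4 members, against 12.6%. The call of Rpn7 held in 11 of 24 alternatives. It was lost with trend and robust moderation (adjusted p = 0.083), with the groups compared alone (adjusted p = 0.248), after turning smg replicate 3 (1.90, adjusted p = 0.981), as deposited (1.72) and without any 1 unfertilized or wild-type array or smg replicate 4 (2.66 to 2.84, adjusted p 0.0685 to 0.239), but not without smg replicate 3 (2.47, adjusted p = 0.00767). Genotype, age, fertilization, dyes and labelling cannot be told apart here.

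The COP9 signalosome is a relative of the lid, built from the same PCI and MPN families, and removes the ubiquitin-like Nedd8 from cullins. None of its 7 measured genes was called in any comparison. With no array turned, their medians were 0.51 in smg over 7 genes, 0.38 in wild-type embryos over 6 and 0.22 in unfertilized eggs over 7, all against oocytes. At an unadjusted p under 0.05 there was 1 of these genes in smg against oocytes and 0 in the other comparisons. The side of 0 depends on the centring: the COP9 median in wild-type embryos was -0.63 as deposited and -0.20 after quantile normalization, where those of all genes were -0.66 and -0.72. In unfertilized eggs it was 0.19 as deposited and -0.41 after quantile normalization, where those of all genes were -0.0060 and -0.69.

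Among 10 measured genes listed under proteasome assembly and regulation, Uch and rngo fell in unfertilized eggs, where 10% of all genes were called lower. A place on this list does not show that a gene acts on the proteasome. Uch is listed apart from Uch-L5, which was not among the measured genes. Keap1 was the 1 gene of the list called in wild-type embryos, where 3.3% of all genes were called. Uch, a deubiquitinase of the UCH family, was at -0.51, 3.29 and 1.34 in smg replicates 1, 3 and 4, against -2.11, -2.31, -1.73 and -1.32 in wild-type embryos and -1.22, -0.74 and -1.56 in unfertilized eggs. All 3 measured smg arrays lay above the other groups with no array turned, and replicate 3 was the highest. Its difference was -1.17 in unfertilized eggs against oocytes (SE 0.19, adjusted p = 7.39e-04), -1.87 in wild-type embryos against oocytes (SE 0.48, adjusted p = 0.0669) and 3.24 in smg against wild-type embryos (SE 0.73, adjusted p = 0.114). This last value for Uch was 1.05 (SE 0.82) after turning smg replicate 3 and 2.28 (SE 0.55, adjusted p = 0.103) without it. rngo, a ubiquitin receptor needed for oocyte growth, fell by 1.15 in unfertilized eggs (adjusted p = 4.08e-04). Keap1, an adaptor that restrains the regulator of proteasome genes, was at 1.22, 1.15, 1.38 and 2.06 in wild-type replicates 1 to 4 and rose there relative to oocytes (1.45, SE 0.27, adjusted p = 0.0171).

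Of 13 genes of ubiquitin, its conjugation and its shuttling, 6 fell in unfertilized eggs and 2 in wild-type embryos, against 10% and 2.48% of all genes called lower. The ubiquitin gene Ubi-p5E fell in both, by 1.58 (adjusted p = 2.14e-05) in unfertilized eggs and by 1.52 (adjusted p = 0.024) in wild-type embryos, and so did the deubiquitinase Usp8, by 1.33 (adjusted p = 9.12e-05) and by 1.31 (adjusted p = 0.0454). In unfertilized eggs the conjugating enzyme vih (-2.09), the deubiquitinase Usp5 (-1.27), the polyubiquitin gene Ubi-p63E (-1.23) and the Npl4 cofactor of the segregase TER94 (-0.60) also fell, with adjusted p from 3.05e-06 to 0.0481. Of 8 genes of the anaphase promoting complex and its activators, the activator fzr (-1.89) and the subunits APC7 (-1.37) and Cdc27 (-1.29) fell in unfertilized eggs, and of 9 cullin ligase genes slmb (-0.91) and Cul2 (-0.82) did, with adjusted p from 3.49e-06 to 0.00738, against the same 10% of all genes.

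In smg against wild-type embryos and in smg against unfertilized eggs, limma called none of the tested genes of these 5 lists, with 0 to 4 genes a list at an unadjusted p under 0.05. With no array turned, the largest differences there, beside Uch, were 2.44 for Usp5 between smg and wild-type embryos (adjusted p = 0.282) and 2.72 for vih between smg and unfertilized eggs (adjusted p = 0.086). After turning smg replicate 3, Usp5 was at 0.96 and vih at 1.45 in these comparisons, and without that array at 1.82 and 2.09. The difference of Usp5 also rests on wild-type replicate 2, at -3.75, against -0.70, -0.79 and -0.55 on wild-type replicates 1, 3 and 4. In smg against oocytes the largest with no array turned was Usp14, a deubiquitinase that docks on the base, at 1.58 (adjusted p = 0.205), with 0 of the lists' genes called by limma and 0 to 3 a list at an unadjusted p under 0.05. Usp14 was at 0.07 after turning smg replicate 3 and at 1.10 without it, so its rank rests on that array. Wild-type embryos against unfertilized eggs also gave 0 calls by limma, with 0 to 2 a list at an unadjusted p under 0.05 and the largest difference in Keap1 (1.48, adjusted p = 0.248).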

How the data were processed

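Log2 ratios of 11 two-colour cDNA arrays were used as deposited by the authors. According to the design text of the submitters, QuantArray 3 measured the 16-bit images and GeneTraffic Duo 3.2 applied a rank-invariant LOWESS. For background and weak spots the treatment was not given in the sources used here, and base 2 was inferred from the range, since the lowest deposited value of -11.92 lies beyond the natural log limit of 11.1 for a ratio of 16-bit intensities. Of 27648 spots, 15116 carried 1 gene symbol, 102 several and 12430 were not listed in the platform annotation. Spots were averaged over 6793 genes, of which 6691 matched the current annotation, and each array was centred on its gene median. Of the 30 members, 26 had 2 spots and 4 had 4, and 8 lacked a value on some array, where the fit drops that array.

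Genes needed values on 3 of 4 arrays of a 2 to 3 h group or 2 of 3 unfertilized arrays. limma 3.58.1 in R 4.3.3 fitted the 8 arrays at 2 to 3 h together, the 3 unfertilized arrays alone, and all 11 for comparisons with unfertilized eggs, with Benjamini-Hochberg adjustment over all tested genes and a threshold of 0.05. Tables and figures used Python 3.11.15, pandas 2.3.3 and matplotlib 3.10.9. Slide sets follow the slide numbers in the sample titles. The fit was tested on simulated data with independent noise at the spread of the wild-type arrays in all groups. That test does not cover the spread of the smg arrays. Members, gene lists and the genes named by value were chosen with earlier results of these data known. Values per array are given for members called in a comparison, for the 2 tested members of each class with the largest difference between smg and wild-type embryos in size, and for Rpn11 and Prosbeta5. Of the pathway lists, called genes are named and up to 2 more per comparison with the largest difference. Alternatives covered centring, quantile normalization, spot medians, filters, moderation, the slide block, the sign of smg replicate 3 and each array left out, and 2 that join the block with that array turned or left out were chosen after seeing the data. The number of arrays limits the precision of every value.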

Additional observations from a re-analysis of the deposited data

Results flagged for a closer look

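Rpt3R, a copy of the ATPase gene Rpt3, had 1 wild-type array far from the other 3. Its level was 0.73 on wild-type replicate 1, against -0.19, -0.12 and -0.10 on replicates 2 to 4. This array had the lowest share of spots with a value. Dixon's test of the gap was run on 46 groups of 4 arrays, of which chance picks out about 1 in 20.

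Prosbeta4R2 was below 0 on all 3 smg arrays that measured it, at -0.71, -0.55 and -0.73, and above 0 on both wild-type arrays that did, at 0.10 and 0.63. The difference of means was -1.02 and was not tested, because the wild-type group had too few values.

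Rpn7 was above 0 on all 4 smg arrays and below 0 on all 3 unfertilized arrays, and the fitted difference was 2.80 (limma adjusted p = 0.041).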

How the results depend on the processing

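Over the 34 member differences tested in the text, none of them between smg and oocytes, and 626 alternatives, 523 kept direction and side of the threshold, 76 gained a call, 23 lost one and 4 turned sign. The 4 were Prosbeta5 in wild-type embryos against oocytes as deposited (-0.24), Rpn2 in smg against wild-type embryos with smg replicate 3 turned and the block (-0.067), and Rpn7 as deposited (-0.20) and Rpn8 after quantile normalization (0.035) between wild-type embryos and unfertilized eggs. Over all 16 members with values per array and all 6 comparisons, 167 of 1910 alternative fits turned sign, 62 of 334 for smg against oocytes, and no cause was tested. Counts are given as genes, then members, with comparisons named by groups. Centred on array medians, they were 209 and 1 for wild type against oocytes, 5 and 0 for smg against oocytes, 16 and 0 between smg and wild type, 745 and 8 for unfertilized against oocytes, 19 and 0 for wild type against unfertilized, and 18 and 1 for smg against unfertilized. As deposited, all were 0 except unfertilized against oocytes. With quantile normalization they were 2806 and 18, 2886 and 11, and 69 and 2 for the first 3, 3186 and 16 for unfertilized against oocytes, and 172 and 5 for smg against unfertilized. The split of calls in unfertilized eggs was 67 higher and 678 lower, against 354 and 537 when centred on genes measured on all arrays and 5 and 3181 with quantile normalization, which moved the median of all genes by -0.69. Centring on genes measured on all arrays gave 3 members for wild type against oocytes and 15 genes for smg against oocytes. Genes complete on all arrays gave 2 members for wild type against oocytes and 7 genes for wild type against unfertilized. Trend and robust moderation gave 111, 3 and 1 genes for the first 3, and 0 and 0 for smg against unfertilized. The slide block gave 528 and 6, 33 genes, 235 and 5, 41 genes for wild type against unfertilized, and 275 and 6 for smg against unfertilized. With smg replicate 3 turned there were 2 members for wild type against oocytes, 0 genes for smg against oocytes, 2 genes between smg and wild type, and 0 and 0 for smg against unfertilized, and with the block added 0 in each smg comparison. Without that array and with the block there were 721 and 8, 54 genes, 131 and 3, 60 genes for wild type against unfertilized, and 153 and 4. Without the low-median pair there were 88 and 0, 1 gene, 0 genes, and 173 and 5 for smg against unfertilized. Groups compared alone gave 750 and 7, 1 gene for smg against oocytes, 68 genes for wild type against unfertilized, and 0 and 0 for smg against unfertilized. Leaving out 1 array gave 39 to 502 genes and 0 to 5 members for wild type against oocytes, 1 to 36 and 0 to 0 for smg against oocytes, 0 to 209 and 0 to 5 between smg and wild type, 497 to 745 and 6 to 9 for unfertilized against oocytes, 14 to 32 and 0 to 0 for wild type against unfertilized, and 0 to 265 and 0 to 7 for smg against unfertilized. No paired analysis was run, because the labels give no replicate numbers that tie arrays of different groups, and the numbers here follow deposition order. The slide set was used as a block instead.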
